A study of Rattus norvegicus with 90 samples.

Results

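Thioacetamide is a liver toxicant that becomes harmful only after it is oxidized by cytochrome P450 enzymes and flavin-containing monooxygenases, first to its S-oxide and then to a reactive S,S-dioxide that binds proteins and lipids. These enzymes are abundant in the hepatocytes around the central vein, and damage from thioacetamide is known to begin there. The liver can then restore itself after a mild injury, through defence and repair programs in the surviving hepatocytes and through the cells that enter the damaged region.

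The samples described here are the livers of male Sprague-Dawley rats that received the low dose of thioacetamide, 25 mg/kg, by intraperitoneal injection and were examined 8 or 24 h later. They were chosen by the labels for tissue, dose, and duration, and comprise 9 of 90 libraries in the series, 5 at 24 h and 4 at 8 h. The question the comparison addresses is how the liver transcriptome changed between 8 and 24 h after a mild exposure. Livers of rats given vehicle (5 libraries at 8 h and 4 at 24 h) and the high dose, 100 mg/kg (5 libraries at each time), were used for reference. Vehicle was saline at 3 ml/kg. By the methods of the study, each group was 5 rats, 10 weeks old at purchase, and all rats, vehicle included, carried a jugular vein catheter. The 8 h rats were dosed in the morning and had no food afterwards, whereas the 24 h rats were dosed in the late afternoon and had food until the morning of the next day. Both sets were killed at the same clock time, and both had been without food for the last 8 h. Time since the dose therefore cannot be told apart from the hour of dosing and the feeding schedule, other than by the vehicle groups, which followed the same schedules.

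RNA was enriched for poly-A and sequenced in pairs, and the values are estimated counts per transcript. A count of this kind divides read pairs between transcripts that share sequence, so a change in one transcript can be a change in its gene or a shift between transcripts of that gene. The files do not pair the transcript identifiers with gene names. Transcripts are therefore counted and described by identifier, only 4 are named, and pathways, cell type markers, the identity of the tissue, and sequences were not analysed. In whole liver, fewer cells of a type and less RNA per cell cannot be told apart.

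The 8 h libraries held 21122346 to 31807591 estimated counts in total, and the 24 h libraries 19623960 to 32910696. The difference was within the spread between libraries (p = 0.413, two-sided exact permutation test). The low-dose 8 h library MS-9 and the vehicle 24 h library MS-1 are near copies. Of 15845 transcripts with at least 10 counts in either, 99.97% agreed within 1 count, against 4.68% in the next closest of 435 liver pairs. Neither library was used below, unless stated. Besides transcripts, each file lists genomic intervals. These took 5.10 to 7.02% of the counts in the 24 h libraries, but 6.02, 8.59, 18.6, and 26.4% in the 8 h libraries (MS-12, MS-94, MS-18, and MS-15, respectively). The mean was 14.9% ± 9.4 (SD, n = 4) at 8 h and 5.91% ± 0.73 (SD, n = 5) at 24 h, and the groups overlapped. The difference had p = 0.0476 by the two-sided exact permutation test and did not pass after Benjamini-Hochberg adjustment over 6 such tests (0.143). In vehicle the share ranged from 4.08 to 23.6% at 8 h and from 7.64 to 25.0% at 24 h, so high shares occurred at both times. The 10 most abundant transcripts took a mean of 24.1% ± 0.66 (SD, n = 4) of the transcript counts at 8 h and 21.8% ± 0.56 (SD, n = 5) at 24 h. The groups did not overlap, and p was 0.0159 by the same exact test, the smallest that the splits of 9 libraries allow, or 0.0952 after adjustment. In the vehicle groups this share was 25.2% ± 2.0 (SD, n = 5) at 8 h and 25.7% ± 1.2 (SD, n = 4) at 24 h, which did not differ beyond their spread (p = 0.730, exact permutation test).

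The low-dose livers stood apart from vehicle at both times. CPM below are counts divided by the TMM-scaled size of the library. Distance from vehicle was the median, over the 12929 transcripts that averaged 2 CPM or more, of the absolute log2(CPM + 0.5) difference from the mean of the vehicle libraries of the same time. It was 0.342, 0.382, 0.410, and 0.453 in the low-dose libraries at 8 h and 0.304, 0.314, 0.340, 0.356, and 0.392 at 24 h. All 9 values lay above those of the vehicle libraries of the same time, each measured against the others of its group, which reached 0.306 at 8 h and 0.248 at 24 h. They lay below every high-dose library of the same time, other than MS-15, the highest at 8 h. The high-dose range was 0.436 to 0.544 at 8 h and 0.479 to 0.631 at 24 h. The mean distance of the low-dose libraries was 0.397 ± 0.047 (SD, n = 4) at 8 h and 0.341 ± 0.035 (SD, n = 5) at 24 h. The 2 groups overlapped, and the decrease was within their spread (p = 0.0952, two-sided exact permutation test; smallest possible 0.0159). This test shuffles the distances alone. It leaves out the error of the vehicle means, which are not the same at the 2 times and are shared by all libraries of a time. The call depended on the vehicle reference: p was 0.0317 without the vehicle library MS-16 and also 0.0317 with the vehicle libraries of both times as the reference. The difference of the means, 24 h minus 8 h, was -0.0553, and without MS-15 it was -0.0365 (p = 0.214, exact permutation test).

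**Figure D1:**
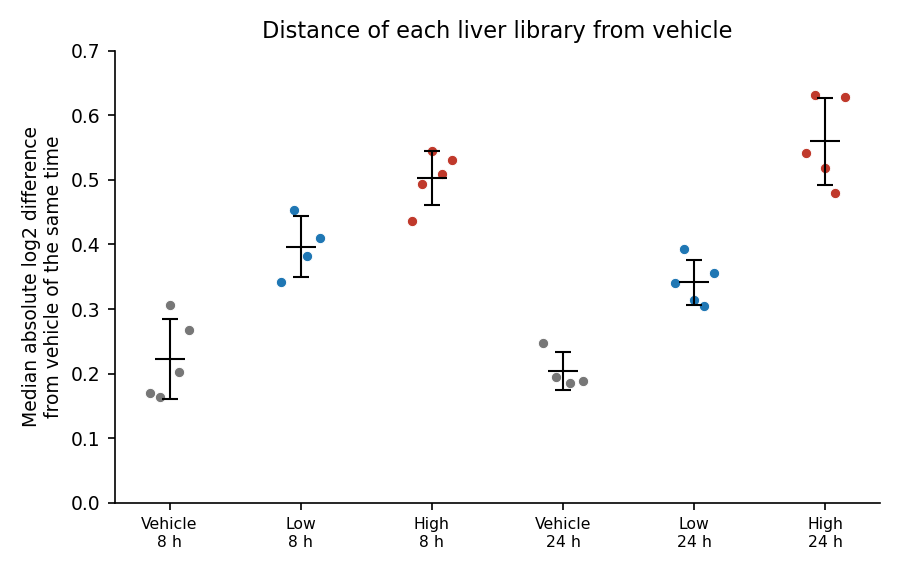
Distance of each liver library from vehicle of the same time (vertical axis, median absolute log2 difference) by dose and time (horizontal axis). Points are libraries, and bars are the mean and SD; the low-dose libraries lie between 0.342 and 0.453 at 8 h and between 0.304 and 0.392 at 24 h, above vehicle at both times.

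Among themselves, the low-dose livers were similar. The median absolute log2 difference between 2 libraries of the group ranged from 0.169 to 0.281 over the 6 pairs at 8 h, and from 0.138 to 0.234 over the 10 pairs at 24 h. The corresponding ranges were 0.199 to 0.433 in vehicle at 8 h and 0.200 to 0.289 in vehicle at 24 h.

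The number of transcripts that differed from vehicle was similar at the 2 times. At 8 h, 1509 of 17835 tested transcripts (8.46%) were called, 868 higher and 641 lower in the low-dose livers. At 24 h, 1560 (8.75%) were called, 858 higher and 702 lower. A transcript was called where edgeR's quasi-likelihood test gave a Benjamini-Hochberg adjusted p-value of 0.01 or less and the fitted fold change was 0.60 or more in size on the natural-log scale, which is 0.87 on the log2 scale. Leaving out 1 library at a time gave 1206 to 1636 at 8 h and 1223 to 1656 at 24 h, and the 24 h count was the smaller in 7 of the 18 cases, most so without the vehicle library MS-19 (1503 at 8 h and 1223 at 24 h). The counts thus set no order between the times. They do not by themselves show the recovery under which name this comparison was proposed, and the groups are called by time alone. The 24 h count depends on the near copies: with MS-1 and MS-9 kept, it was 653, and that at 8 h was 1372.

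Most transcripts called at one time had the same sign at the other, and a minority also passed there. The 2 effects share no library. Of the 1509 transcripts called at 8 h, 94.9% had the same sign at 24 h, and 541 (35.9%) were also called there in that direction. Of the 1560 called at 24 h, 90.7% had the same sign at 8 h, and the 541 were 34.7% of them. Among all tested transcripts, 70.96% had the same sign at both times. Of the 541, 297 were higher than vehicle and 244 lower at both times, and 1 further transcript was called in opposite directions. Across all 17835 transcripts, Pearson's r between the effects was 0.45 and Spearman's rho 0.54, as a description, since transcripts are not independent.

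The transcripts called at 8 h had, in the median, 0.61 of their 8 h log2 effect left at 24 h. The interquartile range of this ratio was 0.39 to 0.88, and 16.4% had an effect at 24 h at least as large as at 8 h. Those called at 24 h had, in the median, 0.58 of their 24 h effect at 8 h, with an interquartile range of 0.31 to 0.88. A list chosen at one time has its larger values there through the choice, so these ratios say nothing of a decline or a rise. The 541 transcripts called at both times had a median absolute log2 effect of 1.38 at 8 h and 1.35 at 24 h, and 45.5% of them were larger at 24 h.

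**Figure D2:**
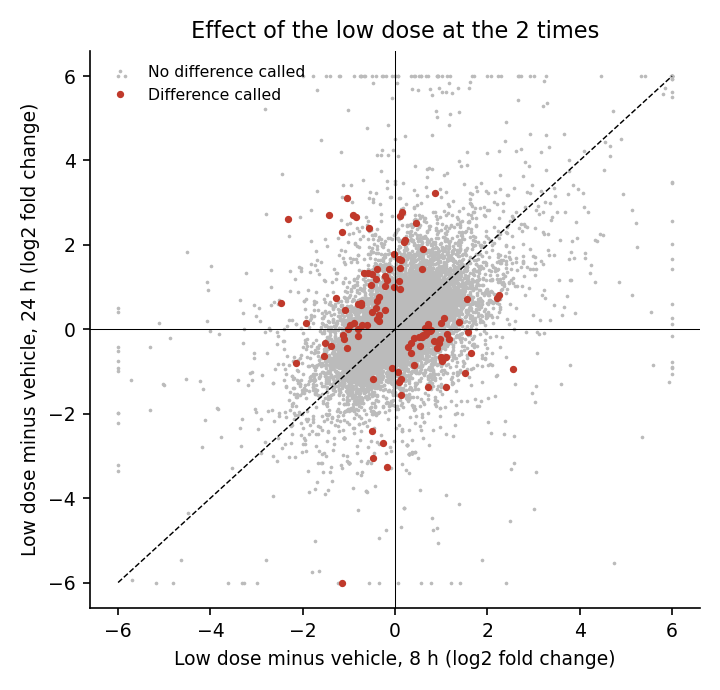
Effect of the low dose (log2 fold change from vehicle) at 8 h (horizontal axis) and 24 h (vertical axis) for 17835 transcripts, with the 112 whose 2 effects differed in red and values beyond the axes drawn at their ends. The cloud runs along the dashed line of equal effects, with 70.96% of transcripts on the same side of 0 at both times, and most red points lie near 1 of the axes or in the quadrants of opposite sign.

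The difference between the effects at 24 and 8 h, which is the change with time after the low dose beyond that with vehicle, was tested in one fit of 18 libraries. It passed an adjusted p-value of 0.01, with no limit on size, for 112 of 17835 transcripts (0.628%), 62 with the larger increase after the low dose and 50 with the larger decrease. For the 62, the median effect moved from -0.51 on the log2 scale at 8 h to 0.98 at 24 h. For the 50, it moved from 0.69 at 8 h to -0.32 at 24 h. In the median, these transcripts thus crossed the vehicle level, in either direction. They were chosen for the difference between their effects in the same libraries, and this choice favours effects of opposite sign. The crossing is therefore given as a description with no test. Of the transcripts called at 8 h alone, 32 of 967 (3.31%) passed this test of the difference, and of those called at 24 h alone, 44 of 1018 (4.32%) did. None of the 541 called at both times in 1 direction did, and 35 of 15308 (0.229%) called at neither time did. A difference that passed was thus seldom seen with a call at a single time, though more often than with no call. The calls and this test share libraries, so these shares are a description.

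The count of 112 depended on most of the single libraries. Leaving out any 1 of MS-2, MS-4, MS-7, MS-10, MS-12, MS-13, MS-15, MS-18, MS-19, MS-20, MS-21, MS-22, MS-23, MS-28, and MS-94 left from 6 to 57 transcripts, and leaving out MS-5 gave 204. Only without MS-16 or MS-29 did the count stay within 1.5 times of 112.

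With vehicle alone, the change between 8 and 24 h passed for 2 of 17835 transcripts (0.0112%), 1 higher and 1 lower, by edgeR, while 2218 had an unadjusted p-value under 0.05 and DESeq2 called 67.

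The direct comparison of the low-dose livers, 24 against 8 h, called 469 of 17150 tested transcripts (2.73%). Of these, 273 rose (1.59%) and 196 fell (1.14%). The median change was 1.24 on the log2 scale among those that rose and -1.27 among those that fell, whereas the median absolute change over all tested transcripts was 0.31. A fitted change of at least 4-fold was seen for 44 that rose and 31 that fell, and of at least 8-fold for 7 and 5. Without the limit on fold change, 1201 (7%) passed, 663 higher and 538 lower. The 8 h and 24 h libraries did not overlap for 468 of the 469, against 20.7% of all tested transcripts, 10.2% with 24 h higher and 10.5% with 24 h lower. The calls were made on these same libraries, so this separation follows largely from the choice and is no further evidence.

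Rises outnumbered falls among transcripts of low abundance, and falls outnumbered rises among the most abundant. Of the 1166 tested transcripts with a mean of 100 CPM or more, 7 rose and 35 fell. Of 6783 between 10 and 100 CPM, 86 rose and 90 fell. Of 6824 between 1 and 10 CPM, 159 rose and 66 fell, and of 2377 below 1 CPM, 21 rose and 5 fell. The percentage called was 3.60% in the most abundant class and 1.09% in the least abundant. In 45 of the 273 that rose, every 8 h library was below 1 CPM, and in 13 of the 196 that fell, every 24 h library was. For 1 of the latter every 24 h library was at 0, so its fitted change is no bound.

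**Figure D3:**
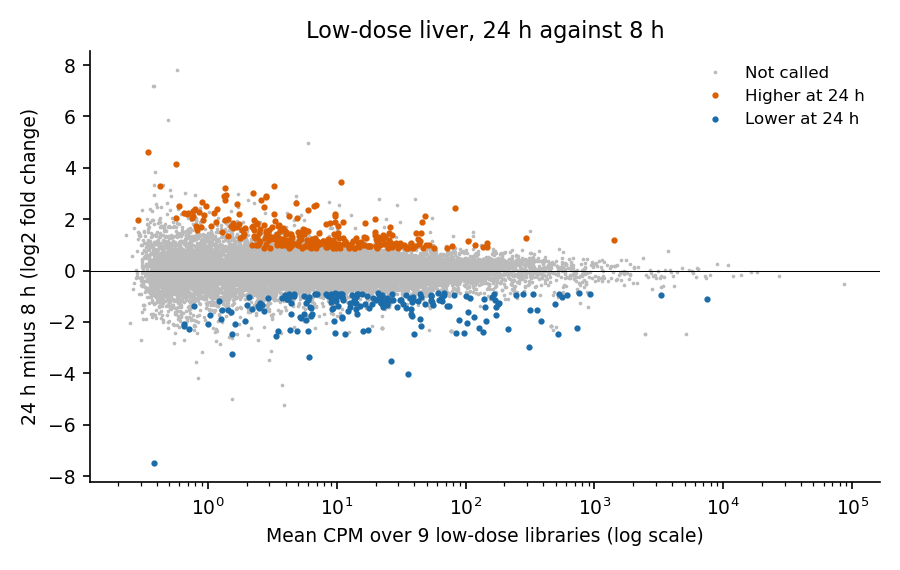
Change between 8 and 24 h after the low dose (vertical axis, log2 fold change) against the mean CPM over the 9 libraries (horizontal axis, log scale) for 17150 transcripts. The 273 that rose and the 196 that fell are coloured; above 100 CPM, 35 of the 42 called transcripts are below the line, and the lowest point on the left is the transcript at 0 in every 24 h library.

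The count and its split depend on libraries and scaling. It was 49 (19 higher, 30 lower) with the interval share as a covariate. In that fit 0 transcripts followed the share itself at an adjusted p-value of 0.01, and 1905 had an unadjusted p-value under 0.05 (edgeR). The share had the higher mean at 8 h, so this fit cannot fully tell it apart from time. The count was 25 (6 higher, 19 lower) without MS-15 and MS-18, the 8 h libraries with the largest interval share, which left 2 libraries against 5. With the vehicle groups in the fit, and the same covariate, it was 415 (201 higher, 214 lower). It was 238 without MS-12, 259 without MS-15, 218 without MS-18, 234 without MS-2, and 283 without MS-22. On log2(TPM + 1), where TPM is the deposited abundance per length, limma called 636, of which 570 rose and 66 fell. The median change over the transcripts was 0.27 on that scale and 0.01 on the scale of the counts, so the directions given here are relative to the typical transcript.

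In the median, those that fell were above vehicle at 8 h and near it at 24 h, and those that rose were slightly below vehicle at 8 h and above it at 24 h, with a wide spread in both. The 196 that fell had a median log2 difference from vehicle of 0.995 at 8 h and -0.10 at 24 h, with quartiles of -1.02 and 0.66 at 24 h. The 273 that rose had -0.31 at 8 h and 1.16 at 24 h, with quartiles of 0.34 and 1.96 at 24 h. Over all tested transcripts these medians were 0.02 and 0.05. At 8 h the low-dose and vehicle libraries overlapped for 73.3% of the transcripts that rose and for 39.3% of those that fell, against 73.5% of all tested. At 24 h they overlapped for 32.6% of those that rose and 54.1% of those that fell, against 72.1% of all tested. For 65 of the 196 that fell the low-dose libraries were outside the vehicle range at 8 h and overlapped it at 24 h, for 36 the reverse held, for 54 they were outside it at both times, and for 41 they overlapped it at both. For the 273 that rose these numbers were 40, 151, 33, and 49. In the same order, the shares were 33.2, 18.4, 27.6, and 20.9% of the 196 that fell. They were 14.7, 55.3, 12.1, and 17.9% of the 273 that rose, against 14.3, 15.7, 12.2, and 57.8% of all tested transcripts. For those that rose, the shares outside the vehicle range at 8 h alone and at both times were thus near those of all tested. These comparisons with vehicle use the low-dose libraries that the calls were made on, so they are given as a description with no test.

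By rule, 4 transcripts were named, those with the largest rises and falls among 226 rises and 180 falls with a mean of at least 2 CPM and no overlap of the groups. ENSRNOT00000013073 was low at 8 h and high at 24 h. It had 0.617, 1.15, 1.75, and 3.30 CPM in the 8 h libraries and 10.6, 12.9, 19.2, 21.2, and 25.5 CPM in the 24 h libraries. It rose by 3.46 ± 0.45 (SE) on the log2 scale (adjusted p = 0.00176, edgeR). In vehicle it ranged from 0.164 to 1.18 CPM at 8 h and from 0.232 to 2.13 CPM at 24 h, so the low-dose livers overlapped vehicle at 8 h and exceeded it at 24 h. Against vehicle, the log2 difference was 1.55 ± 0.58 (SE) at 8 h (adjusted p = 0.0491, edgeR) and 3.88 ± 0.58 (SE) at 24 h (adjusted p = 0.000143), and the difference between these did not pass (adjusted p = 0.114). After the high dose it ranged from 1.61 to 7.73 CPM at 8 h and from 20.3 to 101.9 CPM at 24 h. Its levels per length, from 0.714 to 4.63 TPM at 8 h and from 16.99 to 41.5 TPM at 24 h after the low dose, did not overlap either.

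ENSRNOT00000012690 was close to the detection limit at 8 h. It had 0.165, 0.310, 0.367, and 1.35 CPM at 8 h and 3.65, 3.87, 5.61, 5.69, and 8.46 CPM at 24 h. The 8 h value of 1.35 CPM in MS-12 stood apart from the other 3, and all 24 h values were higher. It rose by 3.28 ± 0.55 (SE) on the log2 scale (adjusted p = 0.00422, edgeR). This call was lost without MS-15, MS-18, or MS-2 (adjusted p from 0.0110 to 0.0163). Vehicle libraries had at most 0.154 CPM at 8 h and 0.253 CPM at 24 h, and several were at 0, so no fold from vehicle is given. All low-dose libraries lay above the vehicle libraries of the same time, at 8 h by little. The difference from vehicle passed at 8 h (adjusted p = 0.00768, edgeR) and at 24 h (adjusted p = 0.000187). The change with time did not differ from that with vehicle by the test (adjusted p = 0.436, edgeR). After the high dose it had 0 to 2.04 CPM at 8 h and 5.01 to 8.68 CPM at 24 h. With the interval share as a covariate, the log2 change was 2.93 for ENSRNOT00000013073 (adjusted p = 0.0260, edgeR) and 2.50 for ENSRNOT00000012690 (adjusted p = 0.0293). Without both MS-15 and MS-18, it was 3.05 (adjusted p = 0.0239, edgeR) and 2.64 (adjusted p = 0.0382). The rises were somewhat smaller in these fits and did not pass.

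ENSRNOT00000010639 had the largest fall among those eligible for naming. It had 32.5, 66.4, 94.4, and 106.3 CPM at 8 h and 2.22, 3.85, 4.15, 5.90, and 6.27 CPM at 24 h. In vehicle it was higher than in every low-dose library of the same time, at 110.8 to 251.1 CPM at 8 h and 272.1 to 421.2 CPM at 24 h. Its log2 change with time was -4.02 ± 0.38 (SE) after the low dose (adjusted p = 0.000631, edgeR) and 1.14 ± 0.32 (SE) with vehicle (adjusted p = 0.157). These 2 changes differed by -5.18 ± 0.48 (SE) on the log2 scale (adjusted p = 8.24e-05). The transcript thus moved further from vehicle with time, from a log2 difference of -1.16 ± 0.33 (SE) at 8 h, which did not pass (adjusted p = 0.0129), to -6.33 ± 0.39 (SE) at 24 h. After the high dose it ranged from 44.97 to 111.5 CPM at 8 h and from 2.17 to 7.34 CPM at 24 h, and the low-dose livers overlapped both ranges. The low-dose call held in all 17 alternatives.

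ENSRNOT00000027785 was higher than vehicle at 8 h and overlapped it at 24 h. It had 27.8, 41.7, 58.3, and 85.3 CPM at 8 h and 1.92, 4.53, 4.78, 4.96, and 6.79 CPM at 24 h. Vehicle had 4.31 to 15.7 CPM at 8 h, below every low-dose library, and 3.75 to 15.1 CPM at 24 h, where the lowest low-dose library lay below all of them. It fell by 3.50 ± 0.38 (SE) on the log2 scale from 8 to 24 h (adjusted p = 0.00103, edgeR), and the change with vehicle was -0.03 ± 0.45 (SE). These differed (-3.48 ± 0.63, SE, adjusted p = 0.00785). Against vehicle, the log2 difference was 2.55 ± 0.44 (SE) at 8 h (adjusted p = 0.000333) and -0.94 ± 0.45 (SE) at 24 h (adjusted p = 0.131). The high dose gave 67.03 to 137.5 CPM at 8 h and 3.13 to 5.49 CPM at 24 h. The fall did not pass without both MS-15 and MS-18, where its log2 change was -3.62 (adjusted p = 0.0139, edgeR), and it passed in the other 16 alternatives.

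**Figure D4:**
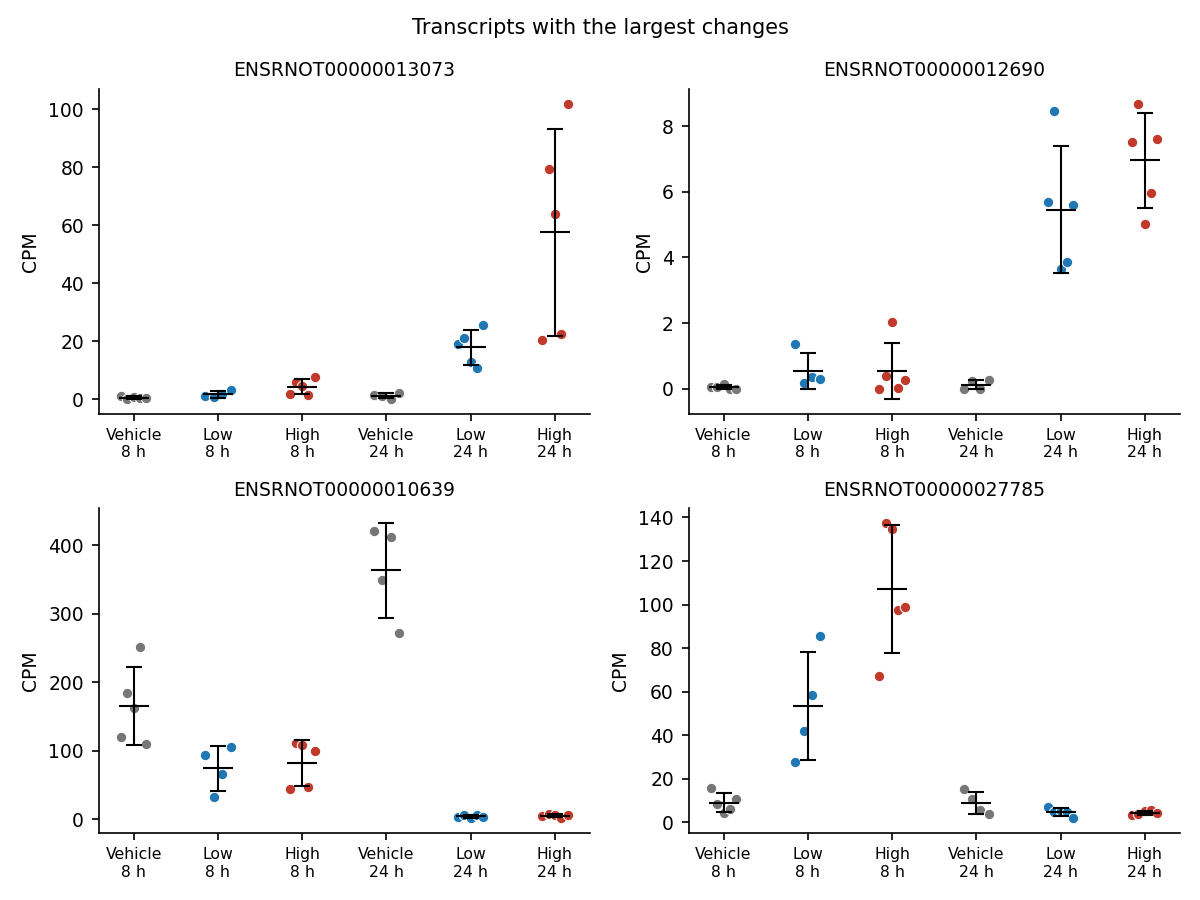
CPM (vertical axis, linear and separate for each panel) of the 4 named transcripts in every liver library by dose and time; points are libraries, and bars are the mean and SD. The upper transcripts reach their highest values at 24 h after thioacetamide. ENSRNOT00000010639 is at 2.22 to 6.27 CPM at 24 h after the low dose against 272.1 to 421.2 CPM in vehicle. ENSRNOT00000027785 is high only at 8 h after thioacetamide.

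Most transcripts called between the times after the low dose had the same direction of change after the high dose. The 2 changes share no library, although both follow the same dosing and feeding schedules. Of the 469 called transcripts, 94.03% changed in the same direction after the high dose, against 69.1% of 17144 transcripts tested in both. For the 273 that rose it was 90.8%, against 65.9% of all tested transcripts that were higher at 24 h. For the 196 that fell it was 98.5%, against 72.3% of all that were lower. Among the transcripts that limma called, the share was 84.7% on log2(TPM + 1) and 86.3% on log2(TPM + 0.1). In the high-dose livers, 2700 of 18474 transcripts (14.6%) were called between the times, 908 higher and 1792 lower. These included, in the same direction, 153 of the 273 (56.04%) and 165 of the 196 (84.2%). The median log2 change after the high dose was 1.04 for the 273 and -1.73 for the 196. With vehicle, which also shares no library, 52.2% of the 469 had the same direction, against 53.9% of all tested transcripts. This was 44.7% of the 273 that rose, against 52.6% of all tested transcripts that were higher at 24 h, and 62.8% of the 196 that fell, against 55.1% of all that were lower. The median vehicle change was -0.05 for the 273 and -0.09 for the 196. Across transcripts, Spearman's rho of the change with time was 0.53 between low and high dose and 0.06 between low dose and vehicle, as a description.

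**Figure D5:**
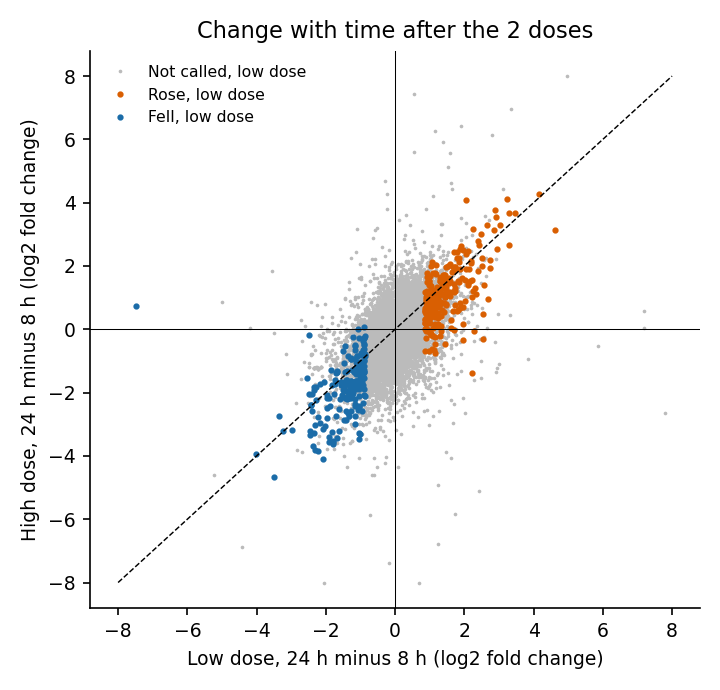
Change between 8 and 24 h (log2 fold change) after the low dose (horizontal axis) and the high dose (vertical axis) for 17144 transcripts, values beyond 8 drawn at the ends of the axes. Of the transcripts that fell after the low dose, 98.5% lie below 0 on the vertical axis, and of those that rose, 90.8% lie above it; the dashed line marks equal changes.

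The change with time nevertheless differed between the doses for 1053 of 18474 transcripts (5.7%) in one fit of 19 libraries at an adjusted p-value of 0.01. For 698 of these the low-dose change was the more positive. Their median log2 change with time was -0.03 after the low dose and -1.15 after the high dose. For the other 355, the medians were -0.05 and 0.75. In the median, these transcripts thus changed with time mainly after the high dose. The low-dose change was the larger in absolute size for 53 of the 698 and 58 of the 355, against 7172 of all 18474. The fitted changes after the 2 doses had opposite signs for 323 of the 698 and 198 of the 355, against 5765 of all 18474. The transcripts were chosen for a difference between the doses in the same libraries, which favours unlike changes. These values are therefore given as a description with no test. None of the 4 named transcripts was among the 1053 (adjusted p from 0.0974 to 0.929, edgeR). The count was 604 without MS-15, 660 without MS-18, 690 without MS-2, 681 without MS-7, and, of the high-dose libraries, 688 without MS-11 and 677 without MS-26.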

How the data were processed

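RNA-seq libraries of 9 low-dose rat livers were analysed, with 9 vehicle and 10 high-dose livers for reference. Per the labels and the study's methods, reads of 75 bases were sequenced in pairs, and the authors quantified them with kallisto 0.42.2 on the Rnor_6.0 transcriptome (submitters' processing notes). The authors deposited an estimated count, which is not normalized, and a TPM, scaled by length and library, for 65166 targets. The 40071 rows with transcript identifiers were used.

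The estimated counts were made whole by rounding and tested in R 4.3.3 with edgeR 4.0.16 (default filter on low counts, TMM scaling, quasi-likelihood test). The 24 h and 8 h libraries were fitted alone, differences from vehicle over 18 libraries, and those between doses over 19. DESeq2 1.42.0, limma 3.58.1 on TPM, other scalings and filters, and leaving out each library were alternatives. CPM values are on 1 TMM scale over the liver libraries. Single values were compared by exact permutation tests, two-sided as 2 times the smaller tail. Scripts were tested on simulated counts.

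Named transcripts were, among those called with a mean of at least 2 CPM and no overlap, the 2 largest rises and 2 largest falls. Members, lists, and tests were chosen with earlier results of these data known. Gene lists set out for this comparison need gene names and were not used here. Replicate numbers follow the order of the samples and pair nothing. Total counts limit the precision of low values, and the SD covers the spread between rats.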

Additional observations from a re-analysis of the deposited data

Results flagged for a closer look

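Among 18 sets of values from the low-dose livers, 3 had a library far from the others of its group, where chance gives about 5%. The 8 h library MS-15 had 23.2% of its transcript counts on the 10 most abundant transcripts, against 24.5% in the nearest. The 8 h library MS-94 had the fewest counts, 21122346, against 30936682 in the nearest. ENSRNOT00000012690 had 1.35 CPM in MS-12, against 0.367 CPM in the nearest 8 h library.

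The change with time after the low dose differed from that with vehicle for 112 transcripts and from that after the high dose for 1053 (edgeR interaction tests). Of the named transcripts, ENSRNOT00000010639 differed from vehicle by -5.18 on the log2 scale (adjusted p = 8.24e-05, edgeR) and ENSRNOT00000027785 by -3.48 (adjusted p = 0.00785).

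The near copies, which entered no main comparison, were both farther from vehicle than the vehicle libraries. MS-1, filed under vehicle, was at 0.515 from the other 24 h vehicle libraries, which reached 0.248. MS-9, filed under the low dose, was at 0.482 from the 8 h vehicle libraries, which reached 0.306.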

How the results depend on the processing

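No paired analysis was possible because, by the methods of the study, the groups were made up of different rats. Of 304 values recomputed under alternatives, 210 stayed on their side of the threshold or close in size, 83 moved, and 8 lost and 3 gained significance. A reversal could be recorded only for the fold changes of the named transcripts, which were chosen for large changes, and none was. The 469 calls between 24 and 8 h became 899 with DESeq2, 881 with limma on log2(TPM + 0.1), 1201 without the limit on fold change, and 218 to 540 with 1 library left out. With alternatives chosen after seeing the data they became 49 (interval share as a covariate) and 25 (without MS-15 and MS-18). With MS-9 kept there were 694. The 112 differences from the vehicle change became 703 with DESeq2, 41 without a filter, and 6 to 204 with 1 library left out. The 2 vehicle calls became 67 with DESeq2, 1 with the covariate, 0 with MS-1 kept, with or without MS-9, and 0 to 2 with 1 library left out. The 1053 differences from the high dose became 2063 with DESeq2 and 604 to 1296 with 1 library left out. The 1560 calls against vehicle at 24 h became 653 with MS-1 and MS-9 kept, and the 1509 at 8 h ranged from 1206 to 1821 under all alternatives. The distance from vehicle differed between times by -0.0697 with a minimum mean of 10 CPM (p = 0.0476, exact permutation test), by -0.0935 with the vehicle libraries of both times (p = 0.0317), and by -0.0737 to -0.0365 with 1 library left out. The causes were not tested. Depth limits the precision of values below about 1 CPM. Of the 2377 tested transcripts with a mean below 1 CPM, 26 (1.09%) were called, and a link with depth was not tested.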
